A study of Homo sapiens with 6 samples.

Results

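The genes described here encode enzymes of serine synthesis, of the folate cycle, and of purine and pyrimidine nucleotide synthesis. They were 35 genes, chosen by name from knowledge of the pathways, with earlier results of these data already known. All 35 were found by symbol among the 25992 genes of the deposited table. RNA was measured in 786-O, a widely used human cell line from a clear cell renal carcinoma, given as wild type in the labels. It was grown in DMEM/F12 medium with serum, and there were 2 groups of 3 libraries each. The copper group had been adapted to copper delivered by serum that had been kept with copper sulfate (CuSO4) in the cold. The control group received serum handled in the same way without copper. The stated copper level is 30 uM in the series text but 30, 31 and 32 uM in the sample labels of replicates 1, 2 and 3, which were taken as 1 group. All libraries were of 1 cell line. Whether each came from a separate culture could not be told from the counts. The labels do not say whether copper cultures were adapted independently. The p-values thus measure the spread between these libraries only.

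Serine is made from a glycolytic intermediate by 3 successive enzymes, of which PHGDH is the first and PSPH the last. Serine hydroxymethyltransferases then move a carbon from serine onto tetrahydrofolate, in the cytosol or in mitochondria, and the folate cycle carries that carbon in several oxidation states. Formyl-tetrahydrofolate supplies carbons of the purine ring, and methylene-tetrahydrofolate supplies the methyl group of thymidylate. Purines and pyrimidines also draw on phosphoribosyl pyrophosphate (PRPP), and salvage enzymes use it too, joining it to purine bases that are recycled. Proliferating tumour cells commonly express many, though not all, of these enzymes at high levels, the mitochondrial folate enzyme MTHFD2 among them.

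The libraries held 16301772 to 25079913 counts, and the 35 genes took between 0.429% and 0.445% of the counts of each library. All 10 renal lineage markers examined passed the low-count filter, with PAX8 between 123 and 147 CPM, a count scaled to library size. All 10 markers of leukocytes, endothelium, podocytes, hepatocytes and muscle that were examined stayed under 1 CPM in every library, and their summed level was 1.40 to 1.57 CPM in copper and 1.09 to 1.36 CPM in control. Replicate 3 stood apart in both groups. On the first principal component of log2 CPM, which carried 57.9% of the variance, it lay at 41.2 in copper and 17.6 in control, against -17.6 to -11.7 for the other libraries. In bulk RNA of this kind, fewer cells of a type and less RNA per cell cannot be told apart.

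Among all 12944 genes that passed the filter, edgeR's quasi-likelihood test called 0% at an adjusted p under 0.05, and 455 genes, 3.52%, had an unadjusted p under 0.05. With replicate number added as a block, 22 genes (0.17%) were called. DESeq2 without the block called 27 (0.167% of those it adjusted) and with the block 54 (0.334%). Without the block it gave an unadjusted p under 0.05 for 454 genes. These are 1.99% of the 22806 genes with any count, a larger set than the 12944 of edgeR. Of the 35 genes, 33 passed the filter. Of these 33, 0 were called by edgeR without the block, with it, or by DESeq2 with or without it. At an unadjusted p under 0.05 there was 1 gene without the block by either tool (MTHFD2), and there were 3 with the block in edgeR (MTHFD2 lower, MTHFD2L and HPRT1 higher), against 8.41% of all tested genes.

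The size of any difference was bounded fairly closely. All 33 genes had a 95% interval of the copper to control difference lying within 2-fold in either direction, as did 88.7% of all tested genes. For 30 of the 33 the interval lay within 1.5-fold, against 64.8% of all tested genes, and the exceptions were MTHFS, ALDH1L2 and HPRT1. The median SE was 0.11 for the 33 genes and 0.15 for all tested genes. The 33 also stood higher in level than most tested genes, and whether level accounts for the narrower intervals was not tested. The median log2 fold change was 0.03 over the 33 genes and 0.0052 over all tested genes. The sign was positive for 19 and negative for 14. In the libraries of the same replicate number the median difference of the 33 genes was 0.01, 0.03 and 0.01 for numbers 1, 2 and 3. The plot of differences between copper and control gives each gene's estimate and interval.

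**Figure D1:**
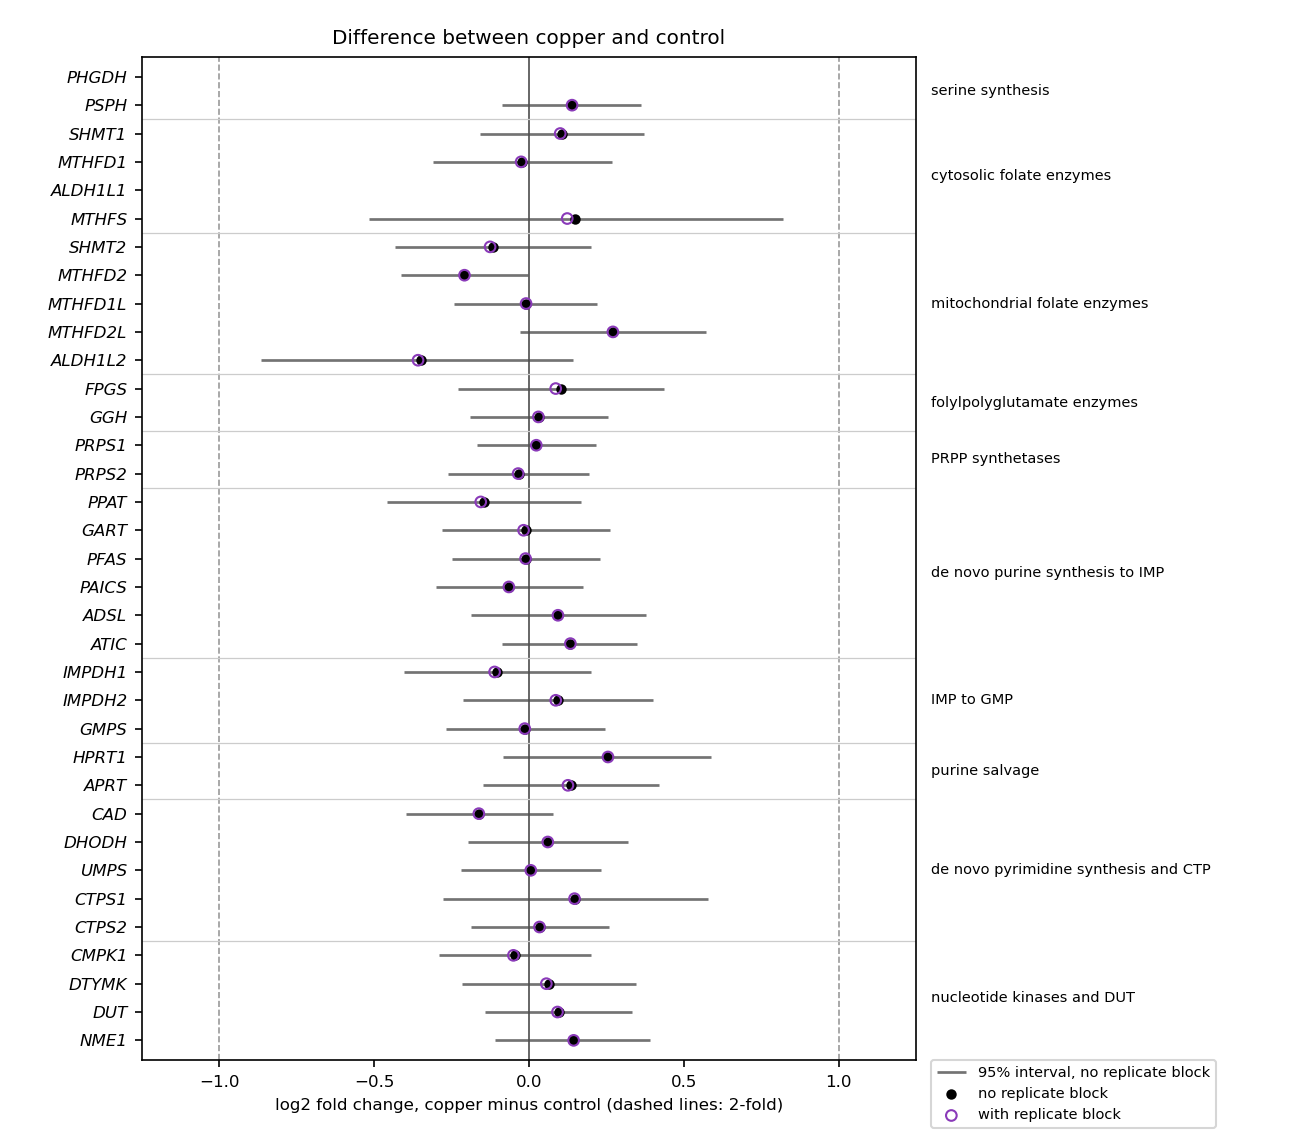
Log2 fold change of copper against control (horizontal axis) for each gene, grouped by role. Filled points and bars are the edgeR estimate and its 95% interval without the replicate block, and open circles are the estimate with the block. PHGDH and ALDH1L1 did not pass the filter and have no point. All 33 intervals lie between the dashed lines at 2-fold, and the 2 estimates nearly coincide for each gene.

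Read against length, the pathway stood above most tested genes. CPM per kilobase was taken over the joined exons of GENCODE 29, which inflates the length of genes with long rare transcripts. On that scale the median of the 33 genes lay at the 81.5th percentile of tested genes and 28 of the 33 were above the median of tested genes. CMPK1, which phosphorylates UMP and CMP, was at 87.2 CPM per kilobase in control, PAICS at 80.1 and IMPDH1 at 79.9. At the other end were ALDH1L2 at 0.432 and MTHFD2L at 1.10. The plot of levels in each library shows that the 6 libraries lay close together for nearly all of the genes.

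**Figure D2:**
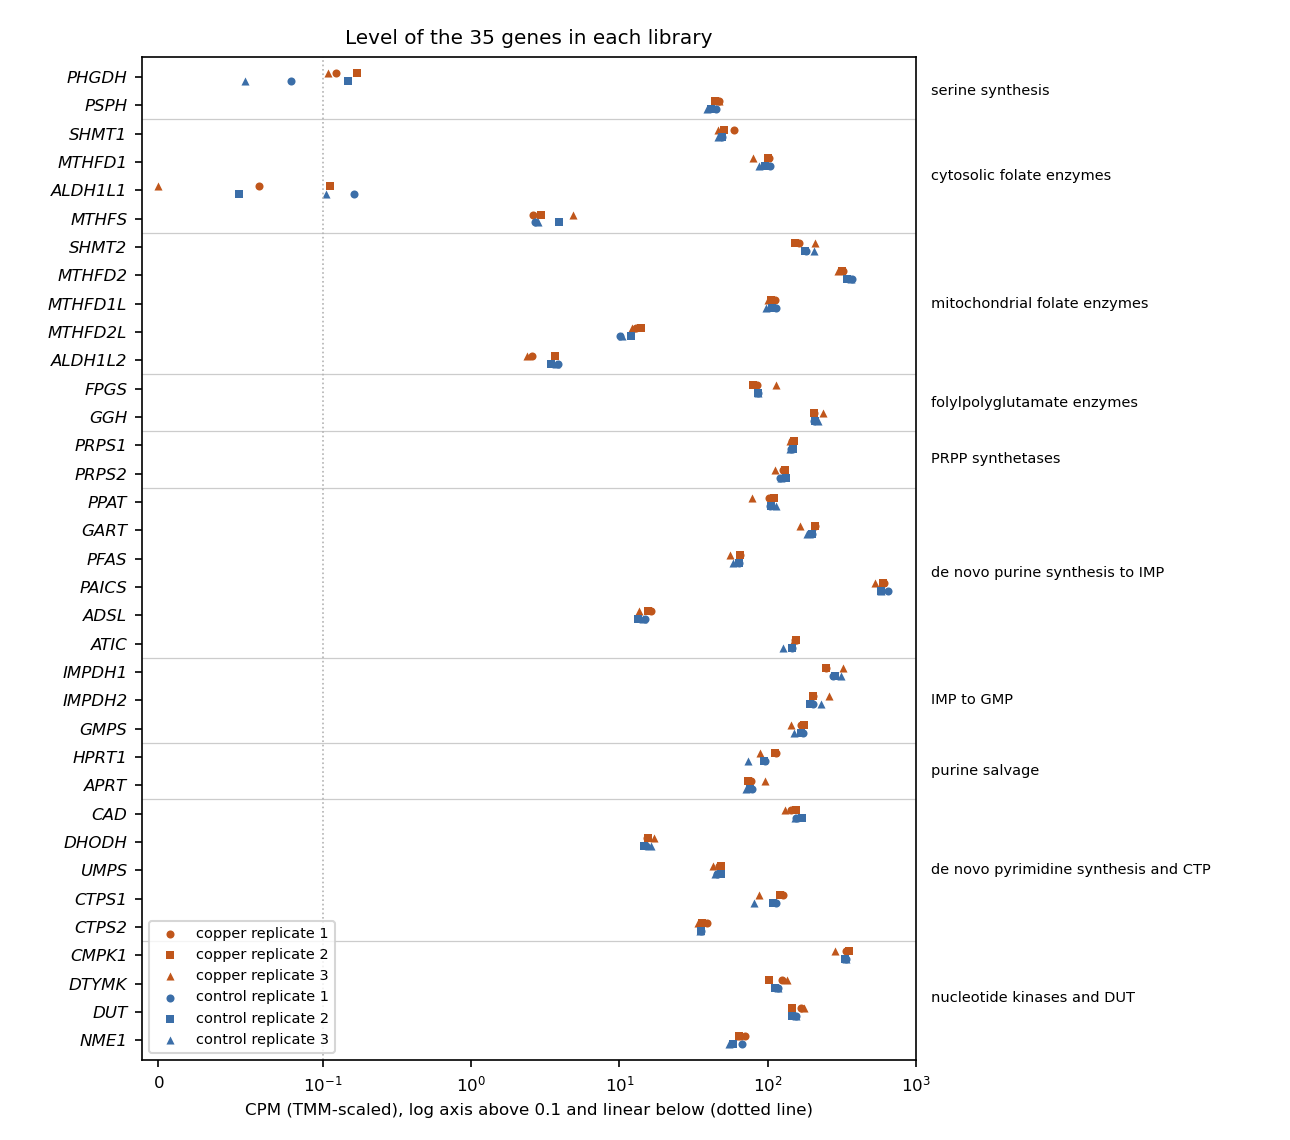
Level of each of the 35 genes in each library, in CPM on a horizontal axis that is logarithmic above 0.1 and linear below. Copper libraries are orange and control libraries blue, with circles, squares and triangles for replicates 1, 2 and 3. PHGDH and ALDH1L1 lie under 0.2 CPM in all 6 libraries, while PAICS lies at 526 CPM or above in all 6.

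In serine synthesis the first step was almost without transcripts and the last was present. PHGDH (phosphoglycerate dehydrogenase, Entrez 26227; chromosome 1, 119711934 to 119744215) had 2, 3 and 2 counts in copper replicates 1, 2 and 3 and 2, 3 and 1 counts in control replicates 1, 2 and 3. The summed 7 counts in copper gave 0.134 CPM of raw library size (exact Poisson 95% interval 0.0538 to 0.276), and the 6 in control gave 0.0923 (0.0339 to 0.201). These intervals cover counting error only. Both groups were thus at the level of a few reads, and no fold change is given. PSPH (phosphoserine phosphatase, Entrez 5723; chromosome 7, 56011064 to 56051444) was at 46.8, 44.1 and 47.1 CPM in copper and 44.7, 41.7 and 38.9 CPM in control. Copper replicate 2 lay below control replicate 1, so the groups overlapped, and the log2 fold change was 0.14 (SE 0.10, 95% interval -0.09 to 0.36). The enzyme between them, PSAT1, is not among the 35 genes and was looked up after the low PHGDH counts were seen. It had 4536 to 8137 counts in each library, with a log2 fold change of 0.02 (SE 0.14). The counts of PHGDH are as deposited, and whether mapping or annotation lowered them was not tested.

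The cytosolic branch of the folate cycle differed little between groups. SHMT1, the cytosolic serine hydroxymethyltransferase, was at 59.3, 50.4 and 46.5 CPM in copper and 49.3, 49.2 and 46.4 CPM in control. The groups overlapped, and the log2 fold change was 0.11 (SE 0.11). MTHFD1, which interconverts methylene-, methenyl- and formyl-tetrahydrofolate in the cytosol, was at 101, 101 and 80.2 CPM in copper and 103, 95.7 and 87.7 CPM in control. It was lowest in replicate 3 of both groups, and the log2 fold change was -0.02 (SE 0.12). SHMT1 and MTHFD1 overlap SMCR8 and ZBTB25 on the opposite strand, and the use of strand in counting is not given in the sources used here.

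The remaining cytosolic genes were low. ALDH1L1, which oxidises formyl-tetrahydrofolate to return free tetrahydrofolate, had 1, 2 and 0 counts in copper and 4, 1 and 2 in control. The sums of 3 and 7 counts correspond to 0.0573 (exact Poisson 95% interval 0.0118 to 0.168) and 0.108 (0.0433 to 0.222) CPM of raw library size. MTHFS, which returns a stored formyl-folate to the cycle, had a log2 fold change of 0.15 (SE 0.29) at 2.62 to 4.86 CPM. Its span is shared with the read-through gene ST20-MTHFS, which had 0 counts in all libraries, and how reads shared by such genes were assigned is not given in the sources used here. Whether the count of MTHFS lost such reads was not tested.

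The mitochondrial branch held 2 of the 3 genes whose groups did not overlap, and these 2 lay in opposite directions. The 3 genes are 9.09% of the 33, near the 10.8% of all tested genes. MTHFD2 (Entrez 10797; chromosome 2, 74198615 to 74217565), which oxidises methylene-tetrahydrofolate in mitochondria, was at 322, 315 and 298 CPM in copper and 371, 345 and 365 CPM in control. Every copper library was below every control library. The mean was 312 ± 12.3 CPM in copper against 360 ± 13.9 CPM in control (SD, n = 3), and the estimated difference on the log2 scale was -0.21 (SE 0.09, 95% interval -0.41 to -0.0042). In edgeR its adjusted p was 1.00, and 0.555 once numbers were blocked. GENCODE 29 lists 7 pseudogenes named after MTHFD2, so reads from near-identical copies could enter its count.

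MTHFD2L (Entrez 441024; chromosome 4, 74158118 to 74303097), the paralog with the same reaction, lay the other way at a far lower level. It was at 13.0, 14.02 and 12.1 CPM in copper and 10.1, 11.96 and 10.3 CPM in control. The groups did not overlap, though copper replicate 3 and control replicate 2 nearly touched. The log2 fold change was 0.27 (SE 0.13, 95% interval -0.03 to 0.57), and the edgeR adjusted p was 1.00, or 0.56 in the blocked fit.

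SHMT2 (Entrez 6472; chromosome 12, 57230360 to 57234935), the mitochondrial serine hydroxymethyltransferase, was at 162, 154 and 208 CPM in copper and 182, 179 and 206 CPM in control. Copper replicates 1 and 2 lay below all control libraries and copper replicate 3 lay above them. The log2 fold change was -0.12 (SE 0.14). MTHFD1L, which makes formate for export from mitochondria, was at 111, 105 and 99.8 CPM in copper and 114, 107 and 97.7 CPM in control, a log2 fold change of -0.01 (SE 0.10). ALDH1L2, the mitochondrial counterpart of ALDH1L1, was at 2.56, 3.65 and 2.37 CPM in copper and 3.86, 3.43 and 3.72 CPM in control. Its estimate was -0.35 (SE 0.22), and copper replicate 2 lay within the control range. Leaving out single libraries, the estimate ranged from -0.56, without copper replicate 2, to -0.23. ALDH1L2 had only 42 to 96 counts per library.

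Folates are kept in the cell as polyglutamates, which FPGS adds and GGH removes. FPGS was at 84.8, 79.1 and 114 CPM in copper and 85.9, 86.4 and 86.0 CPM in control. Only copper replicate 3 stood above the control libraries, and the other two lay below them, with a log2 fold change of 0.10 (SE 0.14). GGH ranged from 205 to 236 CPM over the 6 libraries, with a log2 fold change of 0.03 (SE 0.10).

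The PRPP synthetases gave some of the narrowest intervals. PRPS1 was at 147, 151 and 142 CPM in copper and 144, 148 and 141 CPM in control, a log2 fold change of 0.02 (SE 0.08, 95% interval -0.17 to 0.22). PRPS2 was at 127, 130 and 112 CPM in copper and 122, 133 and 123 CPM in control, with -0.03 (SE 0.10, -0.26 to 0.20). Both genes lie on chromosome X, as do HPRT1 and CTPS2.

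Of the 6 genes that build IMP, the first complete purine nucleotide, 2 had positive and 4 negative estimates. ATIC, which carries out the last steps, was the third gene whose groups did not overlap, at 154, 156 and 150 CPM in copper and 146, 147 and 128 CPM in control. Its log2 fold change was 0.13 (SE 0.09, 95% interval -0.09 to 0.35), and the edgeR adjusted p was 1.00, or 0.652 in the blocked fit. PPAT, which commits PRPP to purine synthesis, had -0.14 (SE 0.13). In copper it was at 102 and 110 CPM in replicates 1 and 2 and at 78.9 CPM in replicate 3, while control ranged from 104 to 113 CPM. GART, PFAS, PAICS and ADSL, which act between PPAT and ATIC, had log2 fold changes from -0.06 to 0.09.

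PPAT and PAICS are neighbours on chromosome 4 and are transcribed away from each other, with 644 bases between the deposited starts. Despite the shared region, PAICS was at 526 to 644 CPM and PPAT at 78.9 to 113 CPM. The stretch next to the PPAT start, on the strand of PPAT, is shown because it is free of annotated exons of either gene, together with the region before HPRT1, the gene with the smallest p among the 35 in the blocked fit. Both come from the RefSeq promoter table (GRCh38.p14). Capitals mark GGGCGG or its complement CCGCCC, the GC box bound by factors of the Sp family.
PPAT, minus strand, chr4:56435616-56435740: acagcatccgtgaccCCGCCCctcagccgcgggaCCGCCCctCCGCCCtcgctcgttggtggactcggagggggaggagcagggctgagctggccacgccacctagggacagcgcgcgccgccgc
HPRT1, plus strand, chrX:134459915-134460152: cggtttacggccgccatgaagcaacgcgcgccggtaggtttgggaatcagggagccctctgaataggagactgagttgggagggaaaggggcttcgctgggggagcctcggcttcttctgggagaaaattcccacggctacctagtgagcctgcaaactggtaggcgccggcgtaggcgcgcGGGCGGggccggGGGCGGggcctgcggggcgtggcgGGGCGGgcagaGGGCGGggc
The printed stretches hold 3 and 4 GC boxes and are 76% and 69.3% G or C. For 24 of the 35 genes a RefSeq window began at the deposited start, and in the 250 bases before it, on either strand, GGGCGG occurred in 16 of 24 (66.7%) against 67.6% of 8301 tested genes. The E-box CACGTG, a motif bound by MYC among other factors, occurred in 4 of 24 (ATIC, DHODH, MTHFD1 and PPAT), against 8.51% of tested genes. CCAAT occurred in 9 of 24, against 34.98%. TGATGNAA, a form of the element bound by ATF4, occurred in 0 of 24 (1.34% of tested genes), and TGACNNNGC, a form of the element bound by NRF2, in 1 of 24 (12.1%). A match is a description of the letters in the window and not a site of binding.

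From IMP to GMP, the estimates of the 2 IMP dehydrogenases lay on opposite sides of 0. IMPDH1 (Entrez 3614; chromosome 7, 128392277 to 128409982) was at 249, 247 and 322 CPM in copper and 278, 286 and 314 CPM in control, a log2 fold change of -0.10 (SE 0.13). IMPDH2 (Entrez 3615; chromosome 3, 49024329 to 49029398) was at 202, 202 and 261 CPM in copper and 203, 192 and 227 CPM in control, with 0.09 (SE 0.13). For both genes replicate 3 was the highest library of its group. GMPS, which aminates XMP to GMP, had a log2 fold change of -0.01 (SE 0.11). GENCODE 29 lists 7 pseudogenes named after IMPDH1.

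Purine salvage recycles bases onto PRPP, HPRT1 for hypoxanthine and guanine and APRT for adenine. HPRT1 (Entrez 3251; chromosome X, 134460165 to 134500668) was at 113, 112 and 89.2 CPM in copper and 95.4, 94.7 and 73.5 CPM in control. Replicate 3 was the lowest library of both groups, so the groups overlapped, but within each number the copper library was higher, with log2 differences of 0.25, 0.24 and 0.28 for numbers 1, 2 and 3. The mean was 105 ± 13.5 CPM in copper against 87.9 ± 12.4 CPM in control (SD, n = 3). The edgeR estimate was 0.25 (SE 0.14, adjusted p 1.00), and the blocked edgeR estimate was 0.26 (SE 0.08, adjusted p 0.469). APRT had 0.13 (SE 0.12), and in the same-number libraries it differed by -0.02, -0.04 and 0.43.

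In pyrimidine synthesis CAD, the multifunctional enzyme of the first steps, was at 145, 155 and 130 CPM in copper and 156, 171 and 153 CPM in control. The copper library was lower in all 3 numbers, the groups overlapped, and the log2 fold change was -0.16 (SE 0.10, edgeR adjusted p 1.00, blocked 0.614). DHODH, which passes electrons from dihydroorotate to ubiquinone in mitochondria, and UMPS, which completes UMP, had log2 fold changes of 0.06 (SE 0.11) and 0.01 (SE 0.10).

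CTP synthetases aminate UTP to CTP. CTPS1 (Entrez 1503; chromosome 1, 40988519 to 41012565) was at 128, 121 and 87.4 CPM in copper and 113, 109 and 80.7 CPM in control. As with HPRT1, replicate 3 was low in both groups and the copper library was higher within each number, by 0.17, 0.15 and 0.12. The log2 fold change was 0.15 (SE 0.18, edgeR adjusted p 1.00, blocked 0.634). CTPS2 was at 39.0, 36.1 and 33.6 CPM in copper and 35.4, 35.4 and 35.2 CPM in control, with 0.04 (SE 0.10).

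The last group phosphorylates nucleotides or, for DUT, breaks down dUTP. NME1, a nucleoside diphosphate kinase, was at 70.8, 64.4 and 63.9 CPM in copper and 67.0, 58.2 and 55.2 CPM in control, a log2 fold change of 0.14 (SE 0.11). Control replicate 1 lay above copper replicates 2 and 3. CMPK1, DTYMK (thymidylate kinase) and DUT had -0.04 (SE 0.11), 0.07 (SE 0.12) and 0.10 (SE 0.10). NME1 shares its span with the read-through gene NME1-NME2, which had 0 counts in all libraries. Whether reads shared with it were left out of the NME1 count was not tested. For DUT, 8 pseudogenes carry its name.

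The groups did not overlap for MTHFD2, MTHFD2L and ATIC, which is 3 of 33 (9.09%), against 10.8% of all tested genes, so the share was near the background. By direction, 2 were higher (5.45% of all tested genes) and 1 was lower (5.35%). Within numbers, 11 of the 33 genes (33.3%) differed in the same direction in all 3 pairs of libraries, 9 higher and 2 lower in copper, against 34.7% of tested genes. Over all 12944 tested genes, 2291 were higher and 2200 lower in all 3 pairs. The split by direction among the 33 was not tested. MTHFD2 and CAD were the 2 that were lower in every pair. The plot of same-number differences shows which pair sets each estimate.

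**Figure D3:**
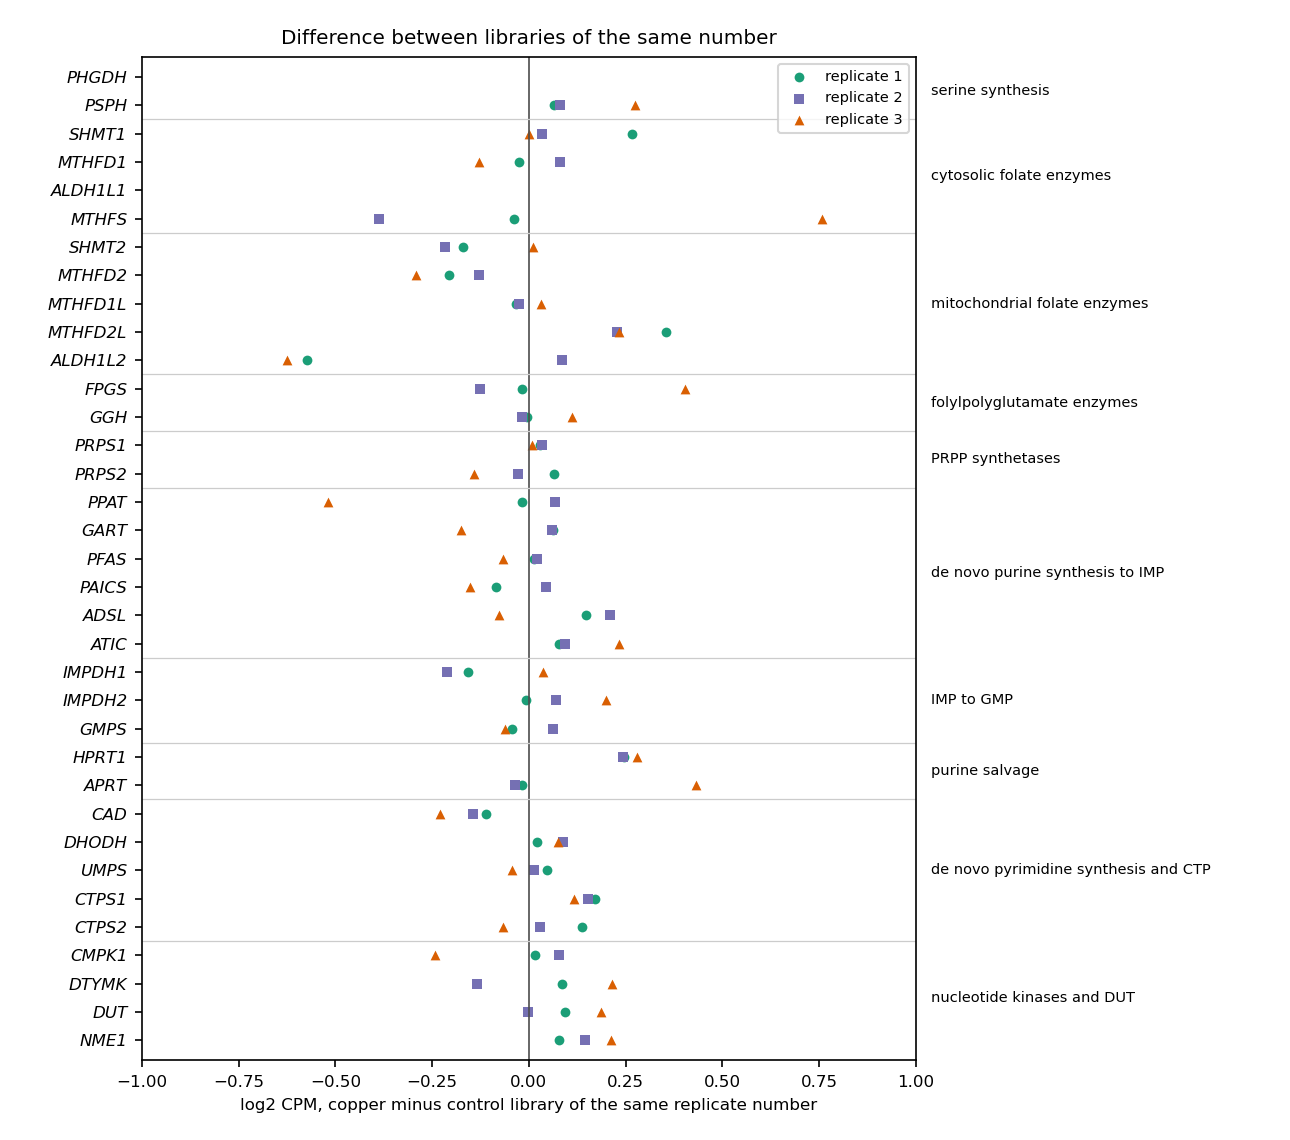
Difference in log2 CPM between the copper and the control library of the same replicate number (horizontal axis), for replicates 1 (circles), 2 (squares) and 3 (triangles). HPRT1 lies between 0.24 and 0.28 in all 3 pairs, while MTHFS, FPGS, APRT and PPAT lie far from the other pairs in replicate 3.

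Replicate 3 differed from replicates 1 and 2 in the same direction in both groups for 72.7% of the 33 genes and for 73.8% of all tested genes, a similar share. Relative to the mean of replicates 1 and 2, it was higher in both groups for 7 of the 33 (21.2%, against 37.4% of all tested genes) and lower in both for 17 (51.5%, against 36.4%). For CTPS1 the shift was -0.51 in copper and -0.46 in control on the log2 scale, and for HPRT1 -0.33 and -0.37. The shift of SHMT2 was 0.40 in copper and 0.19 in control, and that of IMPDH2 was 0.37 and 0.20. PPAT and FPGS differed mainly in copper, by -0.43 and 0.47, against 0.12 and -0.0027 in control. For 16 of the 33 genes (48.5%) the shift of replicate 3 exceeded the size of the copper to control estimate in both groups, against 56.6% of all tested genes. The median size of the shift was 0.23 in copper and 0.10 in control for the 33 genes, and 0.33 and 0.17 for all tested genes. What sets replicate 3 apart is not given in the labels and was not tested.

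**Figure D4:**
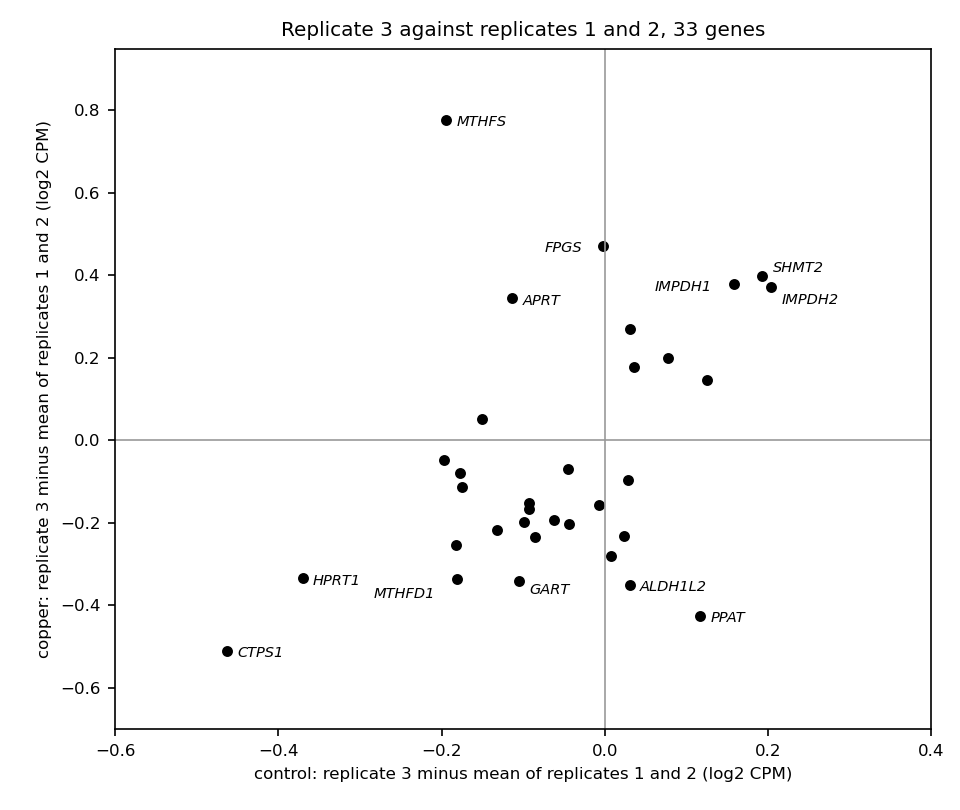
Difference of replicate 3 from the mean of replicates 1 and 2 in log2 CPM, in control (horizontal axis) and in copper (vertical axis), 1 point per gene for the 33 tested genes, with names for the outer points. CTPS1 and HPRT1 lie farthest to the left, at -0.46 and -0.37 in control, and SHMT2, IMPDH1 and IMPDH2 lie to the upper right. MTHFS lies highest, at 0.78 in copper and -0.19 in control.

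Without replicate 3 of either group, the fit with the block called 5 of 33 genes (15.2%), against 7.03% of all tested genes (912). That fit leaves 1 residual degree of freedom from 4 libraries, and the 2 shares were not matched for level of expression. HPRT1 (0.24, edgeR adjusted p 0.00253) and CTPS1 (0.16, adjusted p 0.0358) were higher. SHMT2 (-0.19, adjusted p 0.0067), IMPDH1 (-0.18, adjusted p 0.00617) and MTHFD2 (-0.17, adjusted p 0.0122) were lower. For SHMT2 and IMPDH1 the difference in replicate 3 was 0.01 and 0.04, where numbers 1 and 2 gave -0.17 and -0.22, and -0.16 and -0.21. The same 4 libraries without the block called 0 of the 33, against 0.856% of tested genes, and the smallest adjusted p was 0.0865, for HPRT1. In those 4 libraries the groups did not overlap for 16 of 33 genes (48.5%), against 44.1% of all tested genes.

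Ratios of paired enzymes within a library do not depend on scaling and were compared for 7 pairs. With 3 libraries against 3, an exact two-sided permutation test cannot go below 0.10, and p-values were adjusted over the 7 pairs. Any pair whose groups do not overlap takes that smallest value. The share of such pairs among other genes was not computed. The log2 ratio of IMPDH2 to IMPDH1 counts was -0.31, -0.29 and -0.30 in copper and -0.46, -0.57 and -0.47 in control. The groups did not overlap, the copper libraries differed by less than 0.02, and replicate 3 did not stand apart from the others. The mean was -0.30 ± 0.0088 in copper against -0.50 ± 0.06 in control (SD, n = 3), a difference of 0.20 with an exact permutation p of 0.10, adjusted p 0.35. Per kilobase, IMPDH2 was at 1.07 times IMPDH1 in copper and 0.936 times in control.

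The MTHFD2 to MTHFD2L ratio also separated the groups, but this follows from the levels of the single genes. MTHFD2 was lower, and MTHFD2L higher, in every copper library than in every control library. The ratio thus had to separate the groups and reach the smallest possible permutation p, and it is not a further result. It was 4.62, 4.48 and 4.61 in copper and 5.18, 4.84 and 5.13 in control on the log2 scale. The difference was -0.48, with an exact permutation p of 0.10, adjusted p 0.35, and it was negative in all 3 numbers (-0.56, -0.36 and -0.52). Per kilobase, MTHFD2 stood 48.2 times above MTHFD2L in copper and 67.2 times in control.

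The other 5 pairs overlapped between groups. The ratio of mitochondrial SHMT2 to cytosolic SHMT1 was 1.45, 1.61 and 2.16 in copper and 1.88, 1.86 and 2.15 in control, a difference of -0.23 (exact permutation p 0.50, adjusted p 0.70). It was highest in replicate 3 of both groups. On the log2 scale the differences were 0.02 for MTHFD1L to MTHFD1, 0.06 for PRPS1 to PRPS2 and 0.11 for CTPS1 to CTPS2, with exact permutation p-values from 0.40 to 1.00. ALDH1L2 to ALDH1L1 rests on 0 to 4 counts of ALDH1L1 and is not read further.

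**Figure D5:**
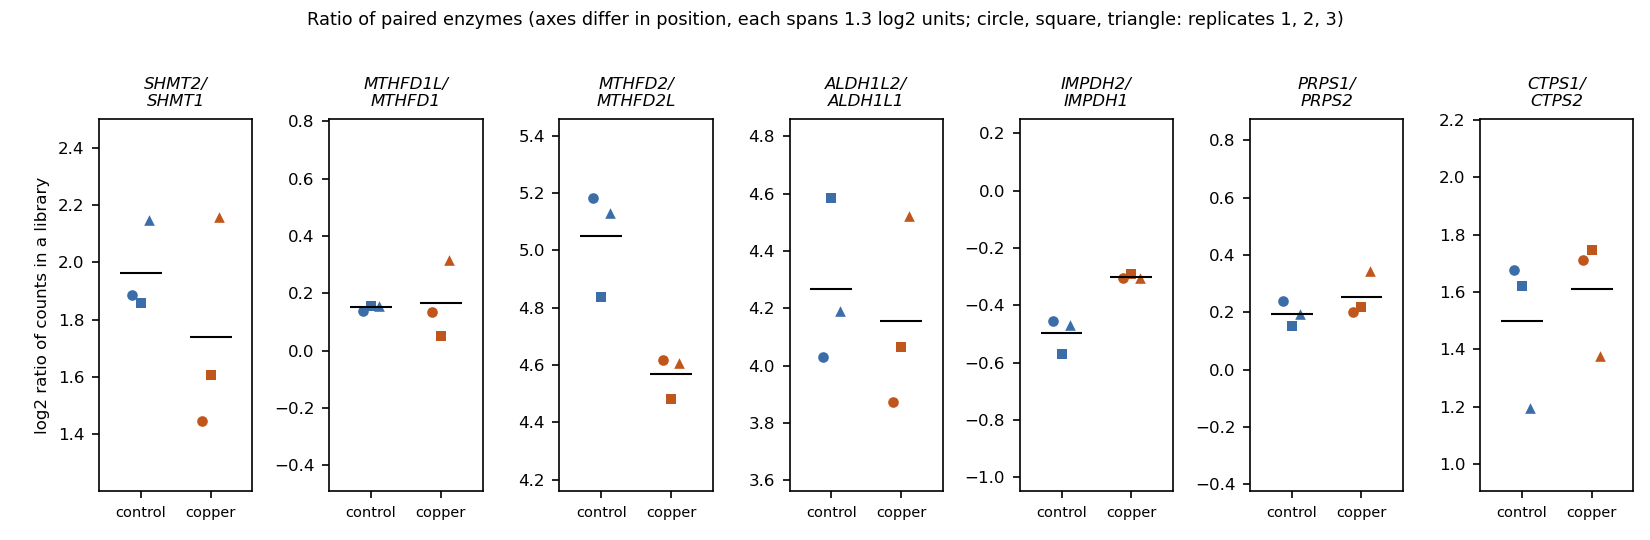
Log2 ratio of the counts of paired enzymes within each library (vertical axes, each spanning the same number of log2 units but placed differently), for control (blue) and copper (orange). Circles, squares and triangles are replicates 1, 2 and 3 and the bars are group means. Only IMPDH2/IMPDH1 and MTHFD2/MTHFD2L show no overlap between groups, which for MTHFD2/MTHFD2L follows from the levels of the single genes. Both have an adjusted p of 0.35 in the exact permutation test.

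Other genes of these pathways were read from the same fit through a list of 49 genes that are not among the 35. They cover serine and folate transport, the glycine cleavage system, TYMS, ribonucleotide reductase, deoxynucleoside kinases, and further nucleotide kinases and salvage enzymes. Of the 49, 46 passed the filter, and 0 were called by edgeR without the block, with it, or by DESeq2. At an unadjusted p under 0.05 there were 0 of the 46 by edgeR and by DESeq2 without the block, and 3 with the block in edgeR, 2 higher and 1 lower. The median log2 fold change was 0.03, and the groups did not overlap for 2 of 46 (4.35%), against 10.8% of all tested genes. The blocked edgeR fit without replicate 3, run on this list after its values were seen, called 5 of the 46 (10.9%; 2 higher and 3 lower), against 7.03% of all tested genes.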

How the data were processed

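The authors deposited raw counts per gene for 6 RNA libraries. Per the labels, the library kit was NEBNext Ultra II Directional. STAR, FastQC, edgeR and the build GRCh38 are listed in the submitters' processing notes, with no role or version. The counting program, its use of strand and its treatment of reads matching several genes are not given in the sources used here. Deposited starts count from 0, so 1 was added. Rows without a symbol (5 rows, 0.000814% of counts) were left out.

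The tests were run with edgeR 4.0.16 under R 4.3.3, using filterByExpr (minimum count 10, minimum total 15), TMM scaling, robust quasi-likelihood test on group, Benjamini-Hochberg adjustment over all tested genes, threshold 0.05. Log2 fold changes and log2 CPM used a prior count of 2, SEs were taken from the test statistic, and CPM used TMM library sizes. Alternatives were RLE and upper-quartile scaling, DESeq2 1.42.0, the low-count filter dropped or replaced by a mean count of at least 10, a prior count of 0.125, the replicate block, each library left out, and replicates 1 and 2 alone. The code was tested on simulated data.

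Both groups carry replicate numbers 1 to 3, whose meaning the labels do not give. The same libraries are also numbered 6, 7 and 9 in copper and 1, 2 and 4 in control, and these numbers do not match across groups. Libraries of the same replicate number are thus not known to be pairs. Across tested genes, deviations from the group mean correlated between same-numbered libraries at 0.46, 0.40 and 0.65. All were above the 0.1 set for pairing, so blocked values are given where they bear on a result. Deviations within a group cancel out, and replicate 3 stood apart in both groups. That alone can make the values for replicates 1 and 2 positive, so passing 0.1 does not show that these are paired. The difference of replicates 1 and 2, which leaves out replicate 3, correlated between groups at only 0.15. The lowest chi-square within a group was 5.04 per degree of freedom, above sampling noise, so each library counted as a replicate. This check cannot tell separate cultures from separate preparations of 1 culture.

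The genes, the lists, the alternatives and the naming rule were chosen with earlier results of these data known. By that rule, values in every library are given for the gene with the smallest p in each role without and with the block, for paired enzymes, and for any gene called by an alternative. Lengths are joined exons of GENCODE 29. Ratios of paired enzymes added 2 to each count.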

Additional observations from a re-analysis of the deposited data

How the results depend on the processing

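None of the 33 tested genes was called under any alternative except the blocked fit without replicate 3, which called 5. That fit also called 5 of the 46 tested genes of the second pathway list, for which it and 4 other alternatives were added after seeing the data, and 0 were called there under every other alternative run. Genes called among all tested numbered 0 in the main analysis, 12 with no filter, 27 with DESeq2, 111 with replicates 1 and 2 alone, and 0 to 15 when single libraries were left out, the 15 without copper replicate 3. With the replicate block they numbered 22, with the block in DESeq2 54, and with the block without replicate 3 912. Under the block, the paired-enzyme ratios were tested by a sign-flip over same-numbered libraries, whose smallest p is 0.25. The exact p of that test was 0.25 for MTHFD2/MTHFD2L, IMPDH2/IMPDH1 and CTPS1/CTPS2. For MTHFD2/MTHFD2L this value follows from the levels of the single genes. The median log2 fold change of the 33 genes was 0.0333, and it was 0.0572 with upper-quartile scaling (0.0281 over all tested genes), 0.0142 with no filter, 0.0199 with the block in DESeq2, and 0.000442 to 0.0368 leaving out single libraries, the lowest without copper replicate 1. The groups did not overlap for 16 of the 33 genes with replicates 1 and 2 alone (48.5%, against 44.1% of all tested genes), and for 3 to 14 leaving out single libraries, where fewer libraries raise the share of all genes too. The shares were 42.4% (14 genes) against 33.3% of all tested genes without copper replicate 3, 27.3% (9) against 21.2% without copper replicate 2, 15.2% (5) against 17.3% without control replicate 1, 15.2% (5) against 19.97% without control replicate 3, 12.1% (4) against 14.8% without control replicate 2, and 9.09% (3) against 16.3% without copper replicate 1. The log2 fold change kept its sign under every alternative for 16 of the 33 genes and changed it for 17, and the cause was not tested. With upper-quartile scaling it became 0.0114 for MTHFD1L, 0.00959 for GART, 0.0118 for PFAS and 0.00923 for GMPS. UMPS was at -0.0129 with no filter, -0.00405 with DESeq2 and -0.00483 with the block in DESeq2. With replicates 1 and 2 alone, without and with the block, the values were 0.0238 and 0.0251 for MTHFD1, -0.217 and -0.228 for MTHFS, -0.0726 and -0.0724 for FPGS, -0.0108 and -0.0108 for GGH, 0.0174 and 0.0177 for PRPS2, 0.0248 and 0.0233 for PPAT, 0.0605 and 0.0605 for GART, 0.0169 and 0.0167 for PFAS, 0.00961 and 0.00939 for GMPS, -0.0281 and -0.0272 for APRT, 0.0455 and 0.0453 for CMPK1, and -0.0196 and -0.0220 for DTYMK. The ALDH1L2/ALDH1L1 ratio differed by 1.0196 with the smaller prior count, and MTHFD1L/MTHFD1 by -0.0558 with replicates 1 and 2 alone. Leaving out single libraries turned the sign within ranges of -0.107 to 0.043 for CMPK1, -0.0212 to 0.0861 for CTPS2, -0.0284 to 0.170 for DTYMK, -0.0714 to 0.201 for FPGS, -0.0685 to 0.0946 for GART, -0.0371 to 0.0682 for GGH, -0.0733 to 0.0679 for GMPS, -0.0412 to 0.164 for IMPDH2, -0.0795 to 0.0823 for MTHFD1, -0.0676 to 0.0387 for MTHFD1L, -0.160 to 0.328 for MTHFS, -0.0525 to 0.0593 for PFAS, -0.00295 to 0.0464 for PRPS1, -0.0785 to 0.0315 for PRPS2 and -0.0381 to 0.0598 for UMPS. Leaving out single libraries kept the sign of the other 18 genes, but the estimate of 16 of them moved by over 1.5 times, with MTHFD2 and MTHFD2L the exceptions. The ranges were 0.000442 to 0.181 for SHMT1, -0.261 to -0.0358 for SHMT2, -0.239 to -0.0387 for IMPDH1, 0.0111 to 0.2997 for CTPS1, 0.140 to 0.355 for HPRT1, -0.560 to -0.233 for ALDH1L2, 0.0884 to 0.185 for PSPH, 0.0682 to 0.165 for ATIC, -0.223 to -0.0967 for CAD, 0.0824 to 0.221 for NME1, -0.247 to -0.0152 for PPAT, -0.105 to -0.00280 for PAICS, 0.0323 to 0.167 for ADSL, 0.00919 to 0.205 for APRT, 0.0116 to 0.104 for DHODH and 0.0351 to 0.168 for DUT. The ratios ranged from -0.298 to 0.0449 for ALDH1L2/ALDH1L1, -0.0388 to 0.231 for CTPS1/CTPS2 and -0.0579 to 0.0745 for MTHFD1L/MTHFD1. Overlap has no value under the block, the prior count or DESeq2, and ratios have none under scalings or filters. Depth limits PHGDH and ALDH1L1, at 0 to 4 counts per library.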
